A study of Mus musculus with 148 samples.

Results

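The 135 CpG measurements described here lie at imprinted genes on mouse chromosomes 9, 15, 17 and 18. They were every CpG row on the autosomes other than chromosomes 1, 2, 6, 7, 10, 11 and 12 that had more than 30 reads in at least 50% of the samples, out of 1549 CpG rows so covered in the whole series. A row is a cytosine on 1 strand. Each row is counted below as 1 CpG, so a CpG read on both strands counts as 2. Rows less than 50 kb apart were joined, which gave 5 windows, each named for the nearest imprinted gene: Peg13 (83 rows), Slc38a4 (29 rows), Airn (16 rows), Impact (5 rows) and Rasgrf1 (2 rows).

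DNA modification was measured in enterocytes, the absorptive cells of the gut lining, isolated from villi of the small intestine of C57BL/6NCrl mice (the strain tag of the samples spells it C57BL/6MCrl). Adult mice of postnatal day 60 (P60) gave 71 samples over 9 segments, from the proximal duodenum (segment 1) to the distal ileum (segment 9), with 7 samples in segment 6 and 8 in every other segment. Infant mice of postnatal day 6 (P6) gave 10 samples, 3, 3 and 4 from segments 1, 3 and 7. Mice of postnatal day 90 (P90) had milk in place of water for 60 days from day 30, either milk with lactose and added sucrose (LAC+, 35 samples, 7 in each of segments 1, 3, 4, 7 and 8) or lactose-free milk (lac-, 32 samples, 6, 6, 7, 6 and 7 in the same segments). The samples analysed here include no P90 mice kept on water. Replicates are numbered samples of 1 group, and the labels do not tie each to a mouse of its own. Each intestine was cut into the 9 segments, so samples of different segments can come from the same mouse. The study counts fewer mice per segment in its own analyses than there are P60 samples, so samples of 1 segment may also share a mouse. The tests take samples as independent, and p-values measure the spread between these samples only. The data hold DNA only, so the identity of the cells could not be checked against marker genes.

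An imprinted gene is expressed mainly from the copy inherited from 1 parent. At its control region, DNA methylation set in the egg or the sperm is kept on 1 copy in body cells, so about equal shares of modified and unmodified reads are the usual picture there. ZFP57 is a protein that binds TGCCGC where the CpG is methylated and helps to keep the mark in the early embryo. Bisulfite sequencing reads methylcytosine and hydroxymethylcytosine alike, and in an inbred strain the copies from mother and father cannot be told apart, so every value is a percentage of reads over both copies.

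Peg13 is a paternally expressed noncoding RNA transcribed from within an intron of Trappc9, a gene of vesicle transport, and its start carries maternal methylation. Slc38a4 encodes an amino acid transporter, Airn is the paternally expressed antisense RNA that silences Igf2r, Impact encodes a regulator of protein synthesis under stress, and Rasgrf1 encodes an exchange factor of Ras proteins. Slc38a4, Airn and Impact are expressed from the paternal copy, and Rasgrf1 has its imprint upstream, set in the father's germ line.

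The sequences of 6 stretches on which the values below turn are printed 5′ to 3′ on the plus strand of GRCm38, with each CpG in capitals. The first 2 are from Trappc9 intron 16, a stretch with low levels that fell along the gut, and one that differed along the gut and with age. The next 3 are the CpG-dense stretches read at intermediate levels at Peg13, Slc38a4 and Airn, and the last is an isolated CpG upstream of Rasgrf1.
Trappc9 intron 16, low stretch, chr15:72802280-72802345: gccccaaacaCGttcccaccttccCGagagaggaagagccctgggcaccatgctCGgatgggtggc
Trappc9 intron 16, graded stretch, chr15:72804014-72804121: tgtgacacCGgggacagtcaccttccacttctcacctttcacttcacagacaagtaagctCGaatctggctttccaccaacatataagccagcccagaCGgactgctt
Peg13 start, chr15:72810275-72810381: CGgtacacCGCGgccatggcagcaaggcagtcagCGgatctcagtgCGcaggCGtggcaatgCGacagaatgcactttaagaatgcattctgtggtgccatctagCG
Slc38a4 intron 1, chr15:97054980-97055108: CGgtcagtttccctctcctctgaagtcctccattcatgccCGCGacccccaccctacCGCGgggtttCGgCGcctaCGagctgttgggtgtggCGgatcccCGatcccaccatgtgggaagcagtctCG
Airn intron 1, chr17:12741566-12741656: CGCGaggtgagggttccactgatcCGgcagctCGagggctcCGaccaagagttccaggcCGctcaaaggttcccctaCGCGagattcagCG
Rasgrf1 upstream CpG, chr9:89882978-89883019: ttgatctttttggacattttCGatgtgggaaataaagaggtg

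The Peg13 window runs from 72801571 to 72810919 of chromosome 15. All of it is in intron 16 of Trappc9, and Peg13 itself, read from the minus strand as 1 exon, takes 72805600 to 72810324. The stretch printed as Peg13 start spans the first base of Peg13. The Slc38a4 window, 97053752 to 97056197 of chromosome 15, has 26 of its 29 CpGs in intron 1 and 3 upstream of the start at 97055956. The Airn window, 12741566 to 12743213 of chromosome 17, is in intron 1 of Airn and at the same time in intron 2 of Igf2r on the other strand. The Impact window, 12974522 to 12974625 of chromosome 18, is in intron 1, and the 2 Rasgrf1 CpGs at 89882998 and 89883905 of chromosome 9 are outside any gene, upstream of the start at 89909909.

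The CpGs differed in density and in the motif of ZFP57. With 50 bases added on either side, the reference held 5.79 CpGs per 100 bp in the printed Airn stretch, 4.37 at the Peg13 start, 3.95 around the Slc38a4 start and 3.92 in Impact, but 1.04 in the farthest stretch of Trappc9 intron 16. TGCCGC, counted on both strands, was found 7 times in the Airn window, and 0.0018% of the chromosome's stretches of that length held as many. It was found 6 times in the Peg13 window (0.288% of stretches held as many) and 1 time at Slc38a4 (13.6% of stretches), and it was not among these letters at Impact or Rasgrf1. The motif holds a CpG, and the stretches were not matched for CpG content (91 CpGs in the Airn window), so these shares do not separate the motif from CpG density. None of the measured CpGs was inside a match.

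Depth differed among the windows, and with it the precision of each CpG. The cytosine reads counted per sample ran from 30513123 to 105887915 in P60, 63253172 to 83453109 in P6, 39582067 to 196647582 in LAC+ and 38564889 to 200558535 in lac-. The median CpG and sample had 8757.5 reads at Impact, 4047.5 at Airn, 2232.5 at Peg13, 982 at Slc38a4 and 334.5 at Rasgrf1. The median SD between replicates was 2.13, 2.601, 2.82, 3.53 and 5.59 percentage points in the same order, against 0.61, 0.80, 0.88, 1.65 and 3.23 points from counting alone. The 14 CpGs with a row on each strand, all in Peg13 (83 rows at 69 CpGs), differed between strands by a median of 2.28 points. 1 library, LAC+ segment 3 replicate 7, stood apart, with deviations from its group of 9.14 points (root mean square over 1312 CpGs) against a median of 2.75. Sequencing lanes followed the groups: all P6 samples were on lane 8 and no other sample was, so age and lane cannot be told apart. Files marked as merged in their names were 29 of 35 in LAC+, 12 of 32 in lac- and 0 in P60 and P6.

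In P60 mice, intermediate levels prevailed. 77 of the 135 CpGs had a mean between 30% and 70% (57.04%), 48 were above 70% (35.6%) and 10 below 30% (7.41%). The other imprinted regions of the capture had 71.2% of 746 CpGs in the middle range, and the Lct–Mcm6 locus, which the study was designed around, had 8.68% of 668. All 5 CpGs of Impact and both of Rasgrf1, 26 of 29 of Slc38a4 and 12 of 16 of Airn were in the middle range, against 32 of 83 of Peg13.

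Outside Peg13, the CpG-dense stretches were flat and near the middle. The 5 Impact CpGs had P60 means between 52.5% and 54.3%. The 9 CpGs of the printed Airn stretch averaged 46.1% ± 2.6 (SD, n = 71), with a lowest sample of 37.2%, a median of 45.9% and a highest of 52.7%. The 26 CpGs around the start of Slc38a4 averaged 45.1% ± 2.3, between 38.4% and 49.5%. The Rasgrf1 CpG at 89882998 averaged 54.99% ± 4.9, and the one at 89883905 averaged 40.3% ± 6.6, where counting error is large. Away from these stretches the same introns were read as mostly modified: the 3 Slc38a4 CpGs at 97053752 to 97053778 averaged 90.8% ± 1.3, and the 7 Airn CpGs at 12742701 to 12743213 averaged 80.6% ± 1.6. The lowest and highest P60 means were 35.4% and 93.5% in Slc38a4 (97055302 and 97053778), 45.6% and 95.5% in Airn (12741598 and 12743057).

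**Figure D1:**
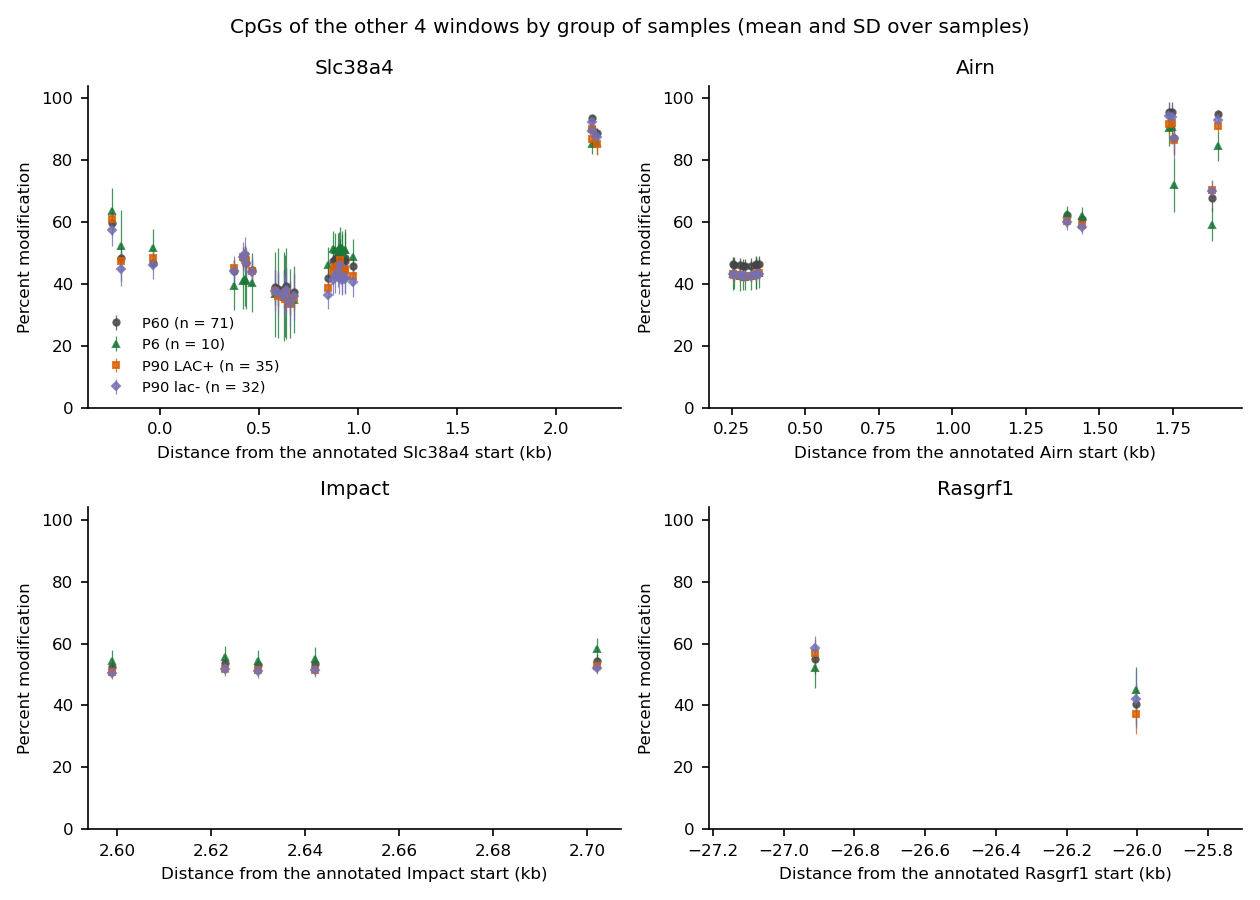
Percent modification of each CpG of the Slc38a4, Airn, Impact and Rasgrf1 windows (vertical axis) against its distance in kb from the annotated start of the gene (horizontal axis); points are means and bars the SD over the samples of P60 (n = 71), P6 (n = 10), LAC+ (n = 35) and lac- (n = 32). The dense stretches lie between about 35% and 60% in every group, while the CpGs farther into Slc38a4 and Airn lie above them, and the P6 points of several Airn CpGs fall below the P60 points.

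Peg13 was uneven. Its start, 8 CpGs under 1 probe, averaged 55.6% ± 3.9 in P60 (lowest 48.5%, median 56.2%, highest 64.2%), and the 3 CpGs upstream at 72810889 to 72810919 averaged 53.4% ± 2.3. The transcribed part from 72807235 to 72809229 averaged 71.5% ± 1.5 over 34 of its 40 CpGs, and the CpG near the 3′ end at 72805747 averaged 88.1% ± 5.2. Beyond the 3′ end, 10 CpGs at 72804022 to 72804860 averaged 77.1% ± 2.5 and 7 at 72803059 to 72803495 averaged 83.1% ± 1.2. The farthest stretch, 72801571 to 72802335, was the low one, at 24.3% ± 6.9 over 11 of its 14 CpGs, with samples from 13.9% to 39.3%. Its means by segment are given below. The 2 lowest CpGs of the window, 72809229 at 2.50% and 72808490 at 3.1%, lie where an arm of a capture probe binds, so their reads can carry the probe's own sequence. Both are among the 10 CpGs below 30%, and both are in the mean of the transcribed part, which they lower. Over all 40 CpGs, these 2 included, that part averaged 74.5% in P60. The highest CpG of the window, 72807752 at 99.9%, has no probe in the study's list.

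The first question was whether modification changes along the adult gut. Over the 9 P60 segments, 21 of 133 tested member CpGs passed a quasi-binomial F test with Bonferroni-adjusted p under 0.01 over all 22270 cytosines tested. This is 15.8% of the members, beside 14.5% of all captured CpGs. At the Benjamini-Hochberg threshold of 0.05, 34 members passed, where the share of all captured CpGs was 24.8%. The count was therefore close to the background, but the places were not evenly spread: 18 of the 21 were in Peg13, 9 of the 14 CpGs of its farthest stretch, 5 of 10 at 72804022 to 72804860, 1 of 7 between them and 3 of 38 in the transcribed part. None of the 11 CpGs at the Peg13 start and just upstream, of the 26 around the Slc38a4 start, of the 9 of the Airn stretch or of Impact or Rasgrf1 passed.

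In the farthest Peg13 stretch modification fell from duodenum to ileum. The lowest adjusted p of all members was that of the CpG at 72802217, 3.36e-27. In segment 1 its 8 samples had a lowest value of 52.1%, a median of 57.65% and a highest of 66.3%, and in segment 9 they had 16.8%, 20.7% and 26.1%. The groups did not overlap, and the mean went from 58.02% ± 4.5 to 21.0% ± 3.1. The CpG at 72801572 went from 56.3% ± 3.7 to 23.2% ± 3.9 (adjusted p = 1.3e-25), with 49.03% as the lowest sample of segment 1 and 28.9% as the highest of segment 9. At 72801841 the mean went from 80.6% ± 4.1 to 42.9% ± 4.1 (adjusted p = 3.18e-22) and at 72801816 from 85.4% ± 4.7 to 52.5% ± 4.0 (adjusted p = 2.76e-20). The CpGs of the printed low stretch started low and fell further. Those at 72802290, 72802304 and 72802334, read by 1 probe, averaged 11.9% ± 2.1 in segment 1 (7.8%, 12.7% and 14.6% as lowest, median and highest) and 3.9% ± 1.5 in segment 9 (2.3%, 3.5% and 6.6%). As a mean over 11 CpGs the stretch went through 36.5%, 31.3%, 28.02%, 24.4%, 24.1%, 23.1%, 18.2%, 16.8% and 16.2% from segment 1 to segment 9.

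Nearer to Peg13, the printed graded stretch stayed level in the proximal gut and fell in the ileum. The CpG at 72804074 had means of 49.9% ± 3.3 in segment 1, 52.5% ± 2.6 in segment 3 and 33.8% ± 2.6 in segment 9 (adjusted p = 2.12e-19), and the highest sample of segment 9, 37.6%, was under the lowest of segment 1, 44.7%. The CpG at 72804112 went from 59.9% ± 2.9 in segment 1 to 44.5% ± 2.0 in segment 9 (adjusted p = 1.17e-16). Over its 10 CpGs, this part of the intron averaged 77.8% in segment 1, 79.1% in segment 3 and 72.3% in segment 9. Within the Peg13 transcript, 72808317 fell from 68.3% ± 2.3 to 57.7% ± 1.7 (adjusted p = 6.58e-14), and 72807507 rose from 78.7% ± 2.6 to 85.3% ± 2.1 (adjusted p = 3.69e-09). The latter was the only Peg13 CpG among the 18 that was higher in segment 9 than in segment 1.

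**Figure D2:**
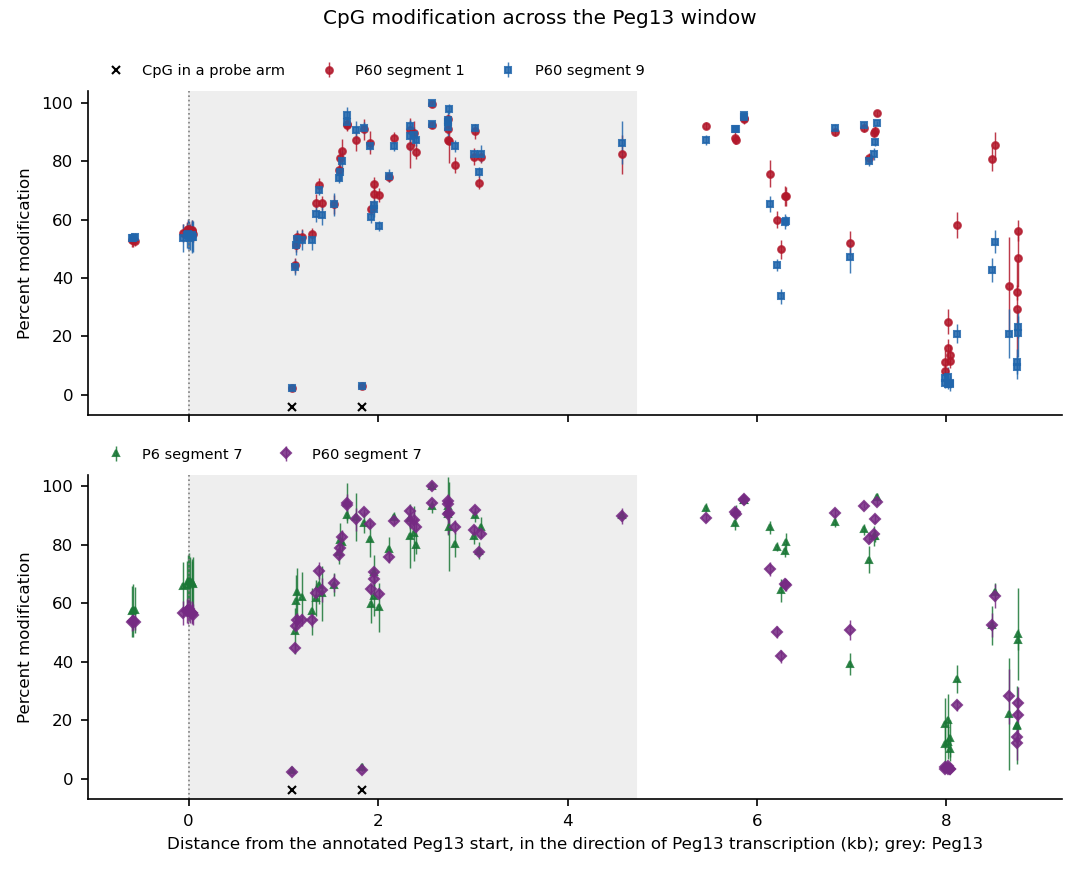
Percent modification (vertical axis) of each CpG of the Peg13 window against its distance in kb from the Peg13 start in the direction of transcription (horizontal axis, Peg13 shaded grey), as mean and SD; the upper panel compares P60 segments 1 and 9 (n = 8 each) and the lower panel P6 (n = 4) and P60 (n = 8) in segment 7. Near the start both segments lie close to 55%, and past 8 kb all 14 CpGs of the farthest stretch are lower in segment 9 than in segment 1, by over 30 points at the CpG at 72802217 (58.02% against 21.0%).

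In the other windows 3 CpGs passed over the P60 segments. The Slc38a4 CpGs at 97053752 and 97053774 went from 87.6% to 89.9% (adjusted p = 0.00141) and from 88.8% to 91.6% (adjusted p = 0.00129) between segments 1 and 9, which is a change of under 3 points. The Airn CpG at 12743194 fell from 73.8% ± 3.8 to 63.8% ± 3.3 (adjusted p = 6.62e-05).

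The CpGs read by 1 probe come from the same molecules, so their means were tested as well. Of 42 such probe means of the members, 18 passed a permutation F test at the Benjamini-Hochberg threshold of 0.05, where 51.4% of all captured probes did. They included all 5 tested probes of the farthest Peg13 stretch and 5 of 6 at 72804022 to 72804860, but neither of the 2 at the Peg13 start and just upstream. Averaged over a window and tested in the same way, with 36.4% of the 22 captured windows passing, Peg13 went from a median of 66.2% (64.4% to 67.3%) in segment 1 to one of 61.2% (60.1% to 63.4%) in segment 9 (permutation F = 24.8, adjusted p = 3.67e-05, where the unadjusted p is the smallest that 100000 resamples can give). Impact passed with a smaller F (2.64, adjusted p = 0.0405): segment 1 was at 50.4% ± 1.6 and the other segments between 52.9% and 54.5%. That call was lost when segment 1 replicates 1 and 4, the 2 most alike libraries of that group, were averaged, and with samples blocked by their running number. The adjusted permutation p was 0.849 for Slc38a4, 0.338 for Airn and 0.167 for Rasgrf1.

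**Figure D3:**
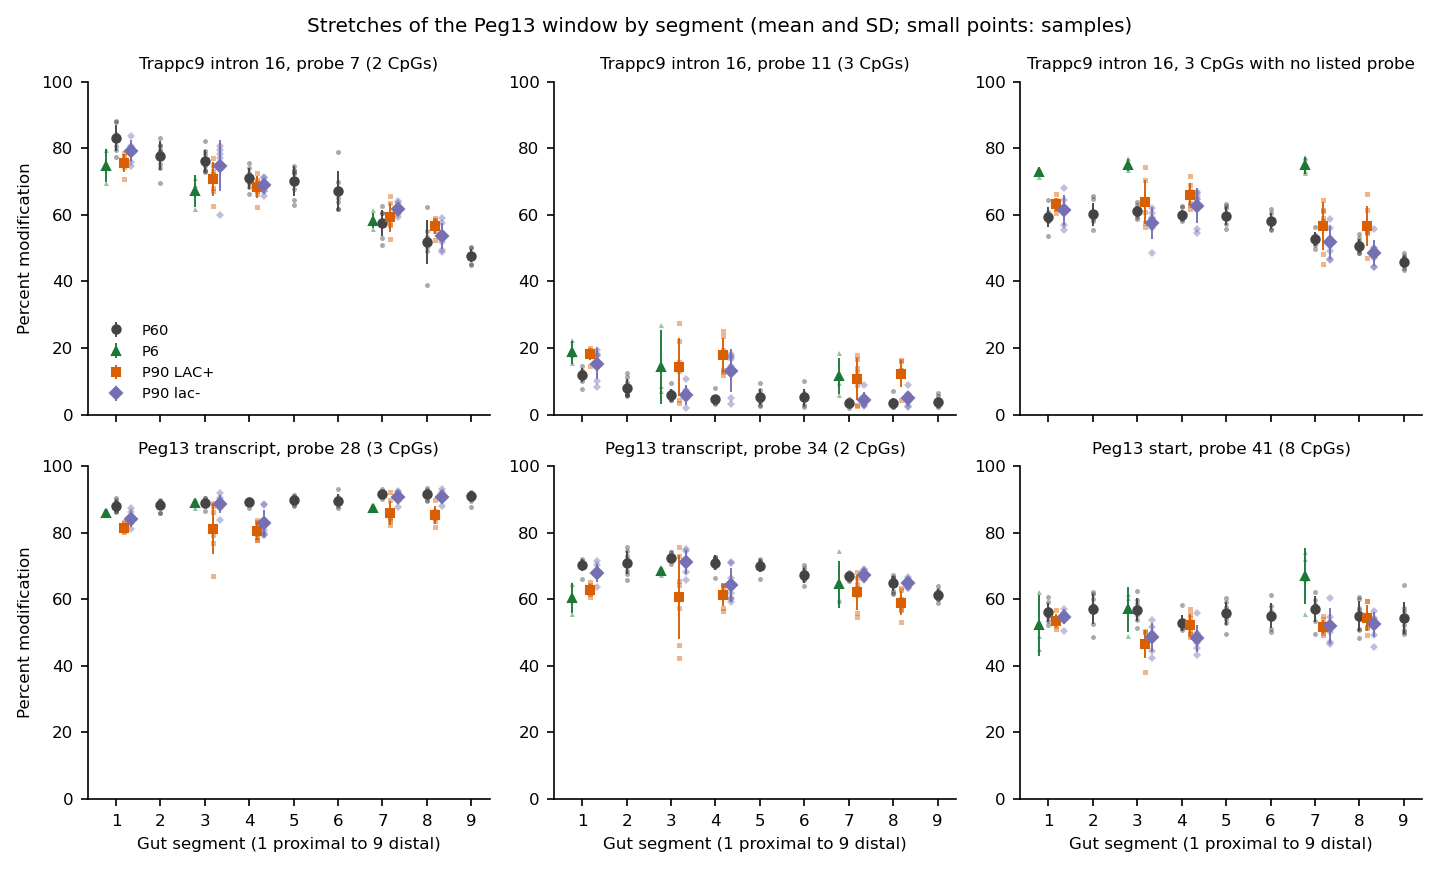
Mean percent modification (vertical axis, with SD, small points single samples) of 6 probe means of the Peg13 window against gut segment (horizontal axis) in P60, P6, LAC+ and lac- mice. The upper panels, from Trappc9 intron 16 beyond the 3′ end of Peg13, fall toward segment 9 in P60 (from a median of 83.3% to one of 47.9% in the first), while the panel of the Peg13 start stays between 52.9% and 57.1%.

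Segments 9 and 3 of P60 mice, from the distal and the proximal part of the gut, were also compared directly. 11 of 135 members passed (8.1% of members, beside 5.03% of all captured CpGs), all in Peg13 and all lower in segment 9. At 72804074 the difference was −18.7 points (adjusted p = 1.47e-05). At 72801841 it was −29.1 points, at 72801816 −27.9 points, and at 72808317, with the lowest adjusted p (1.71e-06), −13.3 points. At the Benjamini-Hochberg threshold 16 passed, beside 12.1% of captured CpGs, and limma called 5 of the 11. Of 43 probe means, 13 passed the exact permutation test after adjustment (2 higher and 11 lower in segment 9), where 32.6% of captured probes passed. Among windows, with 31.8% passing, Peg13 alone of the 5 did (−3.67 points, exact permutation test, adjusted p = 0.00114).

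Age was compared between P6 and P60 mice in segments 1, 3 and 7, with the caveat that lane 8 held all P6 samples. By Bonferroni 0 of 134 members passed in segment 1 (1.21% of captured CpGs), 1 of 133 in segment 3 (1.21%) and 4 of 135 in segment 7 (1.98%). In segment 1, 63 members had an unadjusted p under 0.05 (44.2% of captured CpGs), 37 passed the Benjamini-Hochberg threshold (30 higher and 7 lower in P60) where 22.4% of captured CpGs did, and limma called none. In segments 3 and 7 the Benjamini-Hochberg threshold was passed by 13 and 35 members, beside 13.8% and 19.2% of captured CpGs.

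The lowest adjusted p between ages was in the printed graded stretch. Its plus-strand CpGs at 72804022, 72804074 and 72804112 are read without a probe in the list provided with the study, while 72804023 on the other strand lies under a listed one. At 72804112 the 4 P6 samples of segment 7 had 77.1%, 80.03%, 80.3% and 80.1%, and the 8 P60 samples had a lowest value of 47.2%, a median of 49.8% and a highest of 53.9%. The groups were far apart, 79.4% ± 1.5 in P6 and 50.0% ± 2.1 in P60 (adjusted p = 3.09e-06). The same CpG passed in segment 3, at 80.2% ± 0.8 in P6 and 59.3% ± 2.3 in P60 (adjusted p = 5.42e-04). The neighbouring CpG at 72804074 had 62.3%, 67.3%, 68.2% and 59.7% in P6 segment 7 and went to 41.8% ± 2.2 in P60 (adjusted p = 0.00424). On the minus strand, 72804023 under its listed probe was at 77.9% ± 2.2 in P6 and 66.4% ± 2.3 in P60 in segment 7, which did not pass (adjusted p = 0.0991). In P6 mice the 3 plus-strand CpGs of 72804022 to 72804112 averaged 72.8%, 75.03% and 74.9% in segments 1, 3 and 7, and in P60 mice they averaged 59.2% in segment 1 and 45.9% in segment 9.

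At 72801572, in the farthest stretch, P6 segment 7 samples had 47.8%, 42.4%, 49.4% and 50.8%, and P60 samples were between 23.8% and 27.9% (means 47.6% ± 3.7 and 25.8% ± 1.3, adjusted p = 6.63e-04). Here the age difference depended on the segment. The P60 minus P6 difference was 5.18 points in segment 1 and −21.8 points in segment 7, and the age-by-segment term between them, −26.96 points, had a Bonferroni-adjusted p of 4.29e-06 in the quasi-binomial test. Infant means at this CpG were 51.1%, 47.3% and 47.6% in segments 1, 3 and 7. By contrast, 72802217 had infant means of 60.2%, 45.6% and 34.1% in the same segments, and no CpG or window passed between P6 segments, with 3 or 4 samples each (0 by Bonferroni, 0 by limma, with 19, 9 and 32 members at an unadjusted p under 0.05 between segments 1 and 3, 3 and 7, and 1 and 7, beside 9.5%, 6.56% and 17.1% of captured CpGs). The exact test of 3 against 3 windows cannot go below p = 0.1.

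Part of the Airn window was lower in infants. The CpG at 12743213 had 81.7%, 80.8%, 76.5% and 78.7% in the P6 samples of segment 7, and all 8 P60 samples were between 93.6% and 95.9% (79.4% ± 2.4 against 94.8% ± 0.8, adjusted p = 1.10e-04). As a window Airn was higher in P60 in each segment, by 7.03 points in segment 1 (62.5% against 55.5%), 4.17 in segment 3 and 3.90 in segment 7 (adjusted p of the exact permutation test 0.0143, 0.025 and 0.0143). In segments 3 and 7 the probes over 12743047 to 12743213, with 5 of the 16 CpGs, passed, and the printed stretch did not. That stretch was at 45.7% ± 3.2 in P6 against 47.6% ± 2.0 in P60 in segment 3, and at 44.8% ± 4.6 against 46.04% ± 2.2 in segment 7. In segment 1 it did pass, at 37.9% ± 2.02 against 47.3% ± 1.98 (exact permutation test, adjusted p = 0.0258). The 2 CpGs at 12742701 to 12742751 did not pass in any of the 3 segments. The shares of captured windows passing were 81.8%, 36.4% and 45.5%. Peg13 was higher in P60 in segment 1 (1.98 points, adjusted p = 0.025) and lower in segment 7 (−3.12 points, adjusted p = 0.0143), and Impact was lower in P60 in segment 7 (53.5% against 58.2%, adjusted p = 0.0143). At the Peg13 start the P6 samples ran from 45.01% to 62.3% in segment 1, from 49.1% to 61.5% in segment 3 and from 55.6% to 74.1% in segment 7, beside P60 means of 56.1% ± 2.8, 56.8% ± 3.5 and 56.99% ± 3.9. No CpG of the start passed. Of the probe means of members, 14 of 43, 10 of 43 and 18 of 45 passed in segments 1, 3 and 7, where 30.9%, 19.6% and 37.3% of captured probes did, and none passed without P6 replicate 1, 2 or 3. In segments 1 and 3 that leaves 2 samples against 8, which allow no p under 0.0222.

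**Figure D4:**
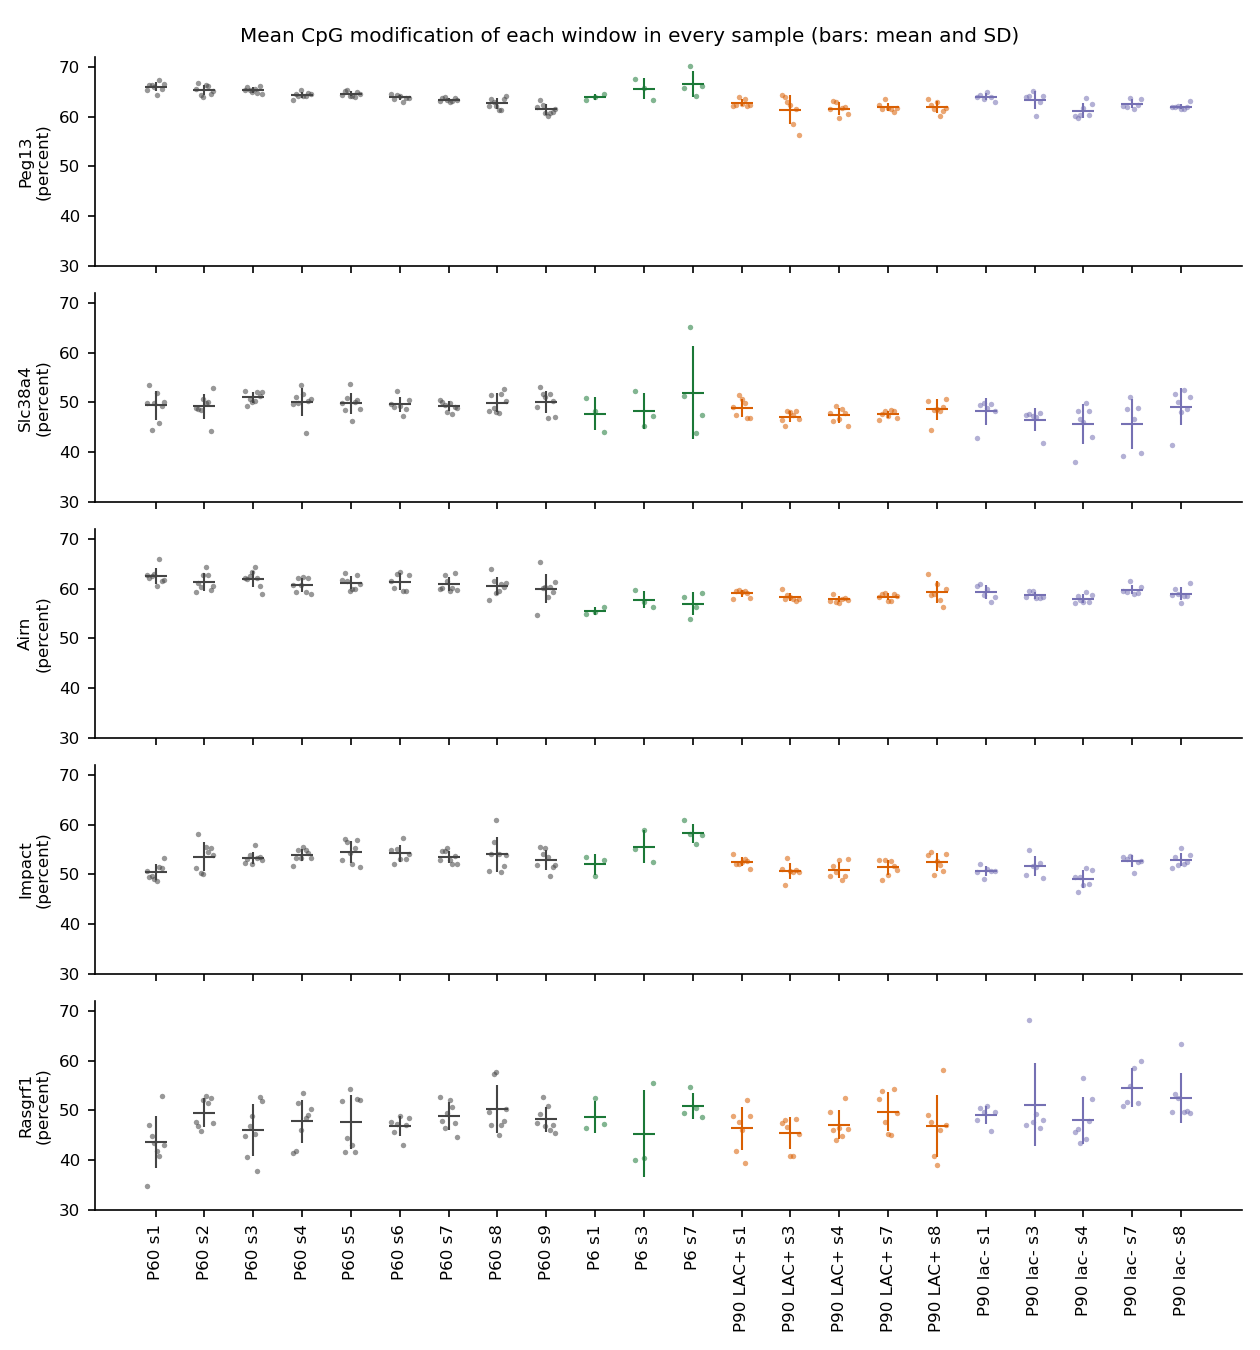
Mean percent modification of each window (vertical axis, from 30%) in every sample, by group of age, milk and segment (horizontal axis); horizontal and vertical bars are the mean and SD. Peg13 declines from a median of 66.2% to one of 61.2% over the P60 segments. The P6 means of Airn are below the P60 means of the same segments, while single samples of the 2 ages overlap.

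The milk experiment asked whether lactose changes modification. No member passed in any of the 5 segments between LAC+ and lac- mice, by Bonferroni or Benjamini-Hochberg, and the share of all captured CpGs was 0 as well. Limma also called none, but CpGs were called with the replicate block and with lane as a term, as counted in the last section. The members with an unadjusted p under 0.05 were 21, 11, 11, 32 and 43 of 133 to 135 in segments 1, 3, 4, 7 and 8, beside 8.55%, 7.22%, 9.29%, 15.4% and 18.4% of captured CpGs. No window passed in 25 comparisons. The lowest p was that of Airn in segment 7, −1.40 points (exact permutation test, p = 0.00408, adjusted 0.0897).

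The milk differences were mostly negative in the Peg13 transcript, as the plot by probe shows, and of mixed sign in the farthest stretch. All probes were read in the same samples, so their signs are not independent. The kind of file differed between the milk groups as well. In the Peg13 transcript, probe means were lower in LAC+ at 12 of 13 probes in segment 1, 11 of 11 in segment 3, 13 of 15 in segment 4, 11 of 11 in segment 7 and 10 of 12 in segment 8. The median differences were −3.52, −5.59, −2.26, −3.21 and −4.61 points, beside 0.15, −0.39, 0.12, −0.45 and −0.15 over all captured probes. In the farthest stretch they were higher in LAC+ at 2 of 6, 4 of 6, 3 of 6, 4 of 5 and 5 of 5 probes in segments 1, 3, 4, 7 and 8. None of these probe means passed after adjustment (0% of captured probes did). Without LAC+ segment 3 replicate 7, the median difference of the transcript in segment 3 was −3.25 points, and 11 of 11 probes were still lower in LAC+.

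**Figure D5:**
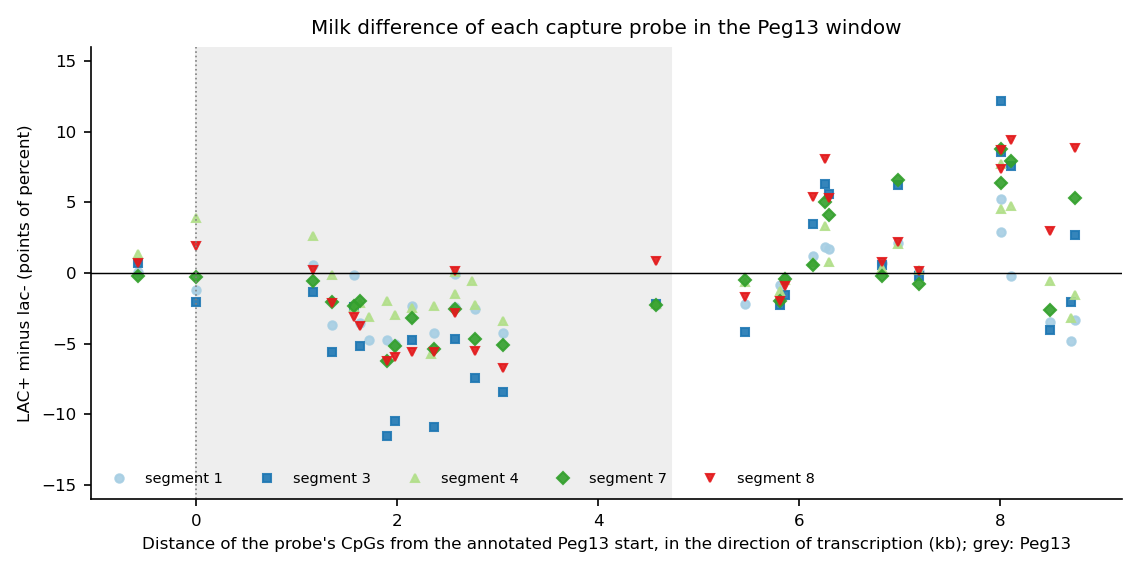
Difference of the probe means between LAC+ and lac- mice in percentage points (vertical axis) against the distance of the probe from the Peg13 start in kb (horizontal axis, Peg13 shaded), for 5 segments. Within the transcript the points lie below 0 at nearly all probes, and past 6 kb, in Trappc9 intron 16, those of segments 3, 7 and 8 lie mostly above 0.

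Both stretches also differed between merged and unmerged files of a milk group, and in lac- the kind of file went with the lane (in segments 1 and 4, merged files were on lane 3 and unmerged files on lane 5). Over 11 probes of the transcript, lac- segment 4 was at 67.7% ± 2.2 in 5 merged and 76.4% ± 0.8 in 2 unmerged samples, beside 68.5% ± 2.8 in the 7 LAC+ samples, all merged, and 78.3% ± 1.1 in P60. In segment 1, lac- was at 70.96% ± 2.2 in 4 merged and 76.2% ± 1.2 in 2 unmerged samples, LAC+ at 69.8% ± 1.3 in 7 merged samples and P60 at 77.4% ± 1.2. The part of merging or lane in the milk differences of these probe means was not tested. For window means, the milk labels were also permuted within merged and unmerged files, and no window passed. In segments 3, 7 and 8, where lac- had 1 merged file each and LAC+ 4, 5 and 6, milk and kind of file can hardly be told apart. In the farthest stretch, over 5 probes, lac- segment 4 was at 37.95% ± 0.8 in 5 merged and 28.4% ± 1.9 in 2 unmerged samples, and P60 segment 4 was at 29.5% ± 1.1. 

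The lac- mice of day 90 were also compared with P60 mice, a difference of 30 days together with the milk. No member passed by Bonferroni (0.0648% of captured CpGs in segment 4, none elsewhere), and limma called none. An unadjusted p under 0.05 was found for 44, 41, 95, 23 and 20 members in segments 1, 3, 4, 7 and 8, beside 27.7%, 22.3%, 49.3%, 16.2% and 16.4% of captured CpGs. At the Benjamini-Hochberg threshold 3, 35, 65, 1 and 5 members passed in segments 1, 3, 4, 7 and 8, beside 3.77%, 6.59%, 29.2%, 1.8% and 2.69% of captured CpGs. In segment 4, 57 of the 65 were lower in lac-, among them 30 of the 40 CpGs of the Peg13 transcript. In segment 3 all 35 were lower, among them the 8 CpGs of the Peg13 start (48.6% ± 4.4 in lac- against 56.8% ± 3.5 in P60), the 9 of the Airn stretch and 11 around the start of Slc38a4.

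Of the windows, 9 of 25 comparisons passed the exact permutation test, where 18.2%, 31.8%, 31.8%, 9.09% and 4.55% of captured windows did in the 5 segments. Peg13 was lower in lac- in segments 1, 3 and 4 (−2.17, −1.97 and −3.17 points, adjusted p = 0.0133, 0.0153 and 0.0061), and so was Airn (−3.28, −3.30 and −2.68 points). Slc38a4 was lower in segment 3 (−4.49 points), Impact in segment 4 (49.1% against 53.9%), and Rasgrf1 was higher in segment 7 (5.66 points, adjusted p = 0.0458). There only 5 of the 6 lac- samples were covered at the Rasgrf1 CpG 89883905. The value of the other sample rests on 89882998 alone, the higher CpG of that group (59.4% against 47.6%), which raises the difference. Without the merged lac- files 2 of the 9 remained, Peg13 and Slc38a4 in segment 3 (−1.88 and −4.76 points, adjusted p = 0.0475 and 0.0171). In segments 1 and 4 that leaves 2 samples against 8, where p cannot go below 0.0222. All 9 differences kept their sign. Of the member probe means, 6 of 43, 5 of 41, 18 of 42, 1 of 40 and 3 of 40 passed (14.3%, 4.98%, 28.7%, 3.23% and 5.15% of captured probes), and none passed without the merged files.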

How the data were processed

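Bisulfite-converted DNA was captured with padlock probes and sequenced. Per the submitters' processing notes, the tools and builds included Trimmomatic 0.32, Bismark and GRCm38 (mm10). The authors deposited, for each of 148 samples, counts of modified and unmodified reads per cytosine, and percent modification was computed here as modified over all reads. Values with more than 30 reads were used. The members and lists were chosen with earlier results of these data known.

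Each cytosine was tested with a quasi-binomial F test where at least 3 samples of each group were covered, with Bonferroni-adjusted p under 0.01 over all CpGs and CpHs tested. Window and probe means were tested by two-sided exact permutation (over the 9 segments, by F with 100000 resamples), Benjamini-Hochberg adjusted at 0.05 over all captured windows or probes of a comparison family. Probe means were added after the data were seen. Alternatives were limma 3.58.1 in R 4.3.3 on log2 odds (0.5 added to each count), a block for the replicate number and a term for the lane. Others were read minimums of 10 and 100, and leaving out replicates. For windows, the milk labels were also permuted within merged and unmerged files. Python 3.11.15, numpy 2.4.6, pandas 2.3.3 and scipy 1.17.1 were used.

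The test was tested on simulated data with 50 changed CpGs per size. Over the P60 segments (22270 cytosines) it found 42 of 50 CpGs changed by 10 points, between P60 segments 9 and 3 (22775 cytosines) 5 of 50, and between P60 and P6 in segment 7 (22325 cytosines) 1 of 50, rising there to 36 of 50 at 30 points. Of CpGs changed by 5 points it found 2, 0 and 0 of 50 in the same order. No unchanged CpG was called, but 8.44%, 6.14% and 6.32% of them had an unadjusted p under 0.05. Of unchanged cytosines outside CpGs, 82 of 20755, 0 of 21224 and 2 of 20812 were called by Bonferroni. For these, 18.8%, 8.59% and 8.34% had an unadjusted p under 0.05, so the test called too many of them over the P60 segments. The simulated spread between samples was a set function of the level. The measured SD ran from 0.37 to 15.0 points among Peg13 CpGs. No comparison of the milk groups was simulated. Changed CpGs were of intermediate level and were shifted in 1 group only, segment 9 over the P60 segments. A graded change along the gut, or a change at low or high levels, was not simulated.

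Named CpGs were, per window, those with the lowest and highest P60 mean, the one with the lowest p over the P60 segments, and those called in any comparison (the 3 with the lowest p where there were more). CpGs less than 500 bp apart were also described by their mean. Replicate numbers were not taken as pairs in the main tests. Deviations of samples with the same number had a median correlation of 0.052 in P60 (lowest −0.379), 0.074 in LAC+ and 0.014 in lac-. In P6 it was 0.287 over 9 pairs (lowest −0.107), beside −0.166 for other pairs, so a pairing of the infant samples cannot be set aside. In P60 samples grouped by running number it was 0.093, beside −0.010 for other pairs. Segment 1 replicates 1 and 4 of P60 were the most alike pair but differed by more than sampling noise, and were kept as 2 samples.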

Additional observations from a re-analysis of the deposited data

Results flagged for a closer look

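In groups of 4 to 10 samples, 9 of 100 window means tested had a sample far from the others by Dixon's criterion at 95%, where chance gives about 5.0. These samples were 68.14% (lac- segment 3 replicate 2) and 63.29% (lac- segment 8 replicate 4) at Rasgrf1, and 63.1% (lac- segment 8 replicate 7) at Peg13. At Slc38a4 they were 43.88% (P60 segment 4 replicate 6), 42.94% (lac- segment 1 replicate 1), 41.84% (lac- segment 3 replicate 6), 41.53% (lac- segment 8 replicate 1) and 44.41% (LAC+ segment 8 replicate 2). At Airn, P60 segment 1 replicate 6 was at 66.03%. In lac- segment 8, the Rasgrf1 CpG 89883905 was covered in 6 of 7 samples, with a highest value of 46.75%. The highest value at 89882998 was 68.22%, so the 63.29% of replicate 4 rests on 89882998 alone.

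The age difference depended on the segment at 2 neighbouring CpGs of Trappc9 intron 16. They were 2 of 134 members tested between segments 1 and 7, and 2 of 133 between segments 3 and 7. Between segments 1 and 3, 0 of 132 passed. This term was fitted at the members only, so no share of all captured CpGs can be set beside these counts. At 72801572 the P60 minus P6 difference in segment 7 was −26.96 points from that in segment 1 and −18.77 points from that in segment 3 (Bonferroni-adjusted p of the quasi-binomial interaction test 4.29e-06 and 2.86e-04). At 72801583 the values were −13.8 and −13.35 points (adjusted p 0.00703 and 0.00175).

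Outside CpGs, 1 cytosine followed by H and G, at 72809197 of chromosome 15 on the minus strand within Peg13, was read as modified at 12.89%, between 10.5% and 17.5% in every sample, where the median over 2240 covered cytosines outside CpGs was 0.399%. A cytosine outside CpGs at 72808397 on the plus strand, also within Peg13, was read at 46.1% (17.1% to 68.6% by sample) with a median of 32 reads.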

How the results depend on the processing

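No called CpG or window changed sign under any alternative run in which its difference was computed anew. Of 72 window comparisons that did not pass, 20 changed sign under at least 1 alternative. For CpGs, the raw difference was kept with limma, the lane term, the replicate block and the other adjustments, so no sign could change there. Over the P60 segments, the window sign with a block or lane was likewise that of the raw segment 9 minus segment 1 difference. Over the P60 segments, windows called went from 2 to 1 with a replicate block by running number and to 1 with segment 1 replicates 1 and 4 averaged, and member CpGs from 21 to 34 by Benjamini-Hochberg. Of those 21, 19 remained with limma, 20 with the replicate block and 21 with lane as a term. Between P60 segments 9 and 3, the 11 CpGs became 5 with limma, 9 with lane and 1, not among the 11, with the replicate block, and the window became 0 with the block. Between P6 and P60, the 5 CpGs became 85 by Benjamini-Hochberg, 14 by Bonferroni over CpGs only, 2 with limma and 0 with the block, and 3 to 5 without 1 P6 replicate each. There the 6 windows and 42 probe means became 0 with the block, and the probe means 0 to 42 without 1 P6 replicate. With the replicate block 1 CpG was called between P6 segments and 3 between LAC+ and lac-, where lane as a covariate gave 1. Between P60 and lac-, 0 CpGs became 109 by Benjamini-Hochberg, 4 by Bonferroni over CpGs only, 1 with lane and 4 with the block. For CpGs, the lane and block fits were run at the members only, so their counts have no share of all captured CpGs beside them. The 9 windows became 0 with the block and 2 without the merged lac- files, an alternative chosen after seeing the data, and the 33 probe means became 0. The causes were not tested, but 3 and 4 pairs allow no p under 0.25 and 0.125 in a paired permutation test. With 6 and 7 pairs, as between P60 and lac-, no p can go under 0.03125 and 0.01562 before adjustment. With the 8 pairs of P60 segments 3 and 9 the limit is 0.00781. With 3 or 4 pairs no window could pass with the block. Whether the other losses come from these limits was not tested. The Peg13 window call between P60 segments 9 and 3 was kept with the block by running number. Lane could not be fitted with age, since all P6 samples were on lane 8. Depth limits Rasgrf1 most, at a median of 334.5 reads.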
